A study of Mus musculus with 4 samples.

Results

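Astrocytes that meet an injury change their shape and their transcription, a response called reactivity. The 9 genes described here, Gfap, Vim, Serpina3n, Lcn2, Cd44, Osmr, Stat3, A2m and Aqp4, were chosen by name as genes of that response. Earlier results of these data were known at that choice. They are 9 of the 33696 gene features counted in the series. All 9 had UMIs in each of the 4 matrices. A UMI is a unique molecular identifier, which marks 1 captured transcript. Gfap and Vim encode intermediate filament proteins of the astrocyte cytoskeleton. Serpina3n, Lcn2 and A2m encode secreted proteins: a serine protease inhibitor, the iron-siderophore carrier lipocalin 2 and the broad protease inhibitor alpha-2-macroglobulin. Osmr encodes a receptor for oncostatin M that pairs with gp130, and Stat3 encodes the transcription factor that gp130 receptors activate through JAK kinases. Cd44 encodes a receptor for hyaluronan, and Aqp4 the water channel of astrocyte endfeet. In cortical injury, reactive astrocytes are known to border the fibrotic core of a lesion.

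Nuclei were taken from mouse brain 21 days after photothrombotic (PT) injury, a focal cortical ischaemia made by light. The library labelled control came from WT mice, and the library labelled cKO from Col1a2(creER); Cxcl12(flox) mice, in which tamoxifen activates Cre in fibroblasts, not in astrocytes. By the study's methods, controls of its conditional knockout strains were of several kinds, among them littermates that lacked Cre or were heterozygous for the floxed allele and, for some experiments, mice that were not littermates. The labels call these control mice only WT and give no ages. Each library pooled 1 male and 1 female mouse, and nuclei of the lesion and of the perilesional parenchyma were tagged apart and loaded at 75% and 25%, so there was 1 library per genotype and no replicate library. Where a pair of values is given, the library labelled control comes first and the library labelled cKO second.

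The matrices held 31995274 to 62749811 UMIs. After filtering, 21743 of 23489 barcodes remained, with medians of 2962 and 2975 UMIs in lesional nuclei and 15920 and 16650 in parenchymal nuclei. The libraries shared 47 cell barcodes. UMIs of both a female and a male mouse occurred in 9.75% to 14.3% of nuclei. The gene floxed in the library labelled cKO was not lower in that library: in lesional fibroblast-like nuclei Cxcl12 stood at 105.7 and 214.9 CPM, which is the UMIs of a gene scaled to a class total of 1000000 UMIs. Which part of the gene the counted reads lie in was not tested, so the genotypes are written as labels throughout.

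Classes of nuclei were named from marker lists that contained none of the 9 genes, and the 9 genes took no part in clustering. Of the 21743 nuclei, 962 were astrocyte-like: 426 and 454 lesional ones and 37 and 45 parenchymal ones. All 12 astrocyte markers had UMIs in each of these 4 groups. Summed over the 12 markers, the level was 25920 and 26680 CPM in parenchymal and 7875 and 8621 in lesional astrocyte-like nuclei. The 8 oligodendrocyte precursor markers summed to 2432 and 1902 CPM in lesional and to 125.3 and 151.2 in parenchymal astrocyte-like nuclei. The 10 myeloid markers stayed between 103.7 and 158.2 in all 4 groups, and the 8 fibroblast markers between 112.3 and 329.4. No class was named mural. The class called endothelial-like had the mural markers Rgs5 and Myh11 among its leading genes. Its mean log2 fold was 6.98 for the endothelial and 5.41 for the mural markers, so its levels may include mural nuclei.

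The starts of 7 of the 9 genes, all but A2m and Aqp4, were taken by symbol from RefSeq promoters of the build GRCm38.p6. A filter that dropped the entries of a single chromosome was applied to the 9 genes but not to the 32817 promoters. The 7 genes are those left after this filter, so it may itself have removed an entry of A2m or Aqp4. The 250 bases before each start were searched on both strands for 3 motifs of factors known from injury signalling. The STAT motif TTCNNNGAA was found in 0 of the 7 promoters and in 7.01% of all 32817 promoters, and the AP-1 motif TGANTCA in 0 of 7 and 6.75%. The NF-kB consensus was found in 1 of 7, that of Vim, and in 7.25% of all promoters. Shown are the promoters of Gfap (chr11:102897201-102897450, minus strand), the filament gene that defines the response, of Cd44 (chr2:102901666-102901915, minus strand), which differed the most between regions, and of Vim (chr2:13574061-13574310, plus strand), with the NF-kB matches in capitals. The second run of capitals in Vim holds 2 overlapping matches.
Gfap promoter: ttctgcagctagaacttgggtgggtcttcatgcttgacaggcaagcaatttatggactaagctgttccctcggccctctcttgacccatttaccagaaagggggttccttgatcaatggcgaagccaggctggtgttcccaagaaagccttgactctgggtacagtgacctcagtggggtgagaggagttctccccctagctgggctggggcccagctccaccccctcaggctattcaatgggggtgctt
Cd44 promoter: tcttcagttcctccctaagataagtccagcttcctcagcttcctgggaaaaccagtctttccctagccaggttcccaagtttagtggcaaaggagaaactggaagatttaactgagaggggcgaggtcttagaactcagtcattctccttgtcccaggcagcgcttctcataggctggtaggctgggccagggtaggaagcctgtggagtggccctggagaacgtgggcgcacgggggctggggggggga
Vim promoter: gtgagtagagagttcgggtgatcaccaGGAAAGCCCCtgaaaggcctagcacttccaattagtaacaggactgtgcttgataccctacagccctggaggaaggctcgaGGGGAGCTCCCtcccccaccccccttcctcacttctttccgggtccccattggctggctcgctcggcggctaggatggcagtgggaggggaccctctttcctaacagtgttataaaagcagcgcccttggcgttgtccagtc
A match here is a run of letters and no evidence of binding, and the absence of one says only that these letters were not in this window.

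The first question was in which nuclei of the lesion each gene was counted. Levels are CPM of the UMIs summed over the nuclei of a class, with exact 95% Poisson intervals that cover counting error only. Gfap stood at 1018 (interval 968.9 to 1069) and 1161 (1114 to 1209) in astrocyte-like nuclei. Of the 10 classes compared, endothelial-like nuclei came next, at 63.0 and 42.9, so that the mean of the astrocyte-like levels was 20.6 times higher. Ependymal-like nuclei (11 and 21 in the lesion) and dividing ones (19 and 38) were too few to enter this comparison. The 21 ependymal-like nuclei of the library labelled cKO held 12 Gfap UMIs. A2m stood at 1213 and 1423 in astrocyte-like nuclei, and Aqp4 at 855.5 and 901.0. The mean Aqp4 level was 39.4 times that of the next class, again endothelial-like nuclei. Astrocyte-like nuclei were 5.26% and 5.72% of lesional nuclei and held 73.5% and 78.1% of the Gfap UMIs, 83.0% and 80.5% of the A2m UMIs and 76.1% and 80.7% of the Aqp4 UMIs. A glial subcluster left unnamed, in which 42.6% of nuclei had UMIs of both sexes, stood at 374.9 and 506.3 for Gfap and is in none of these classes.

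A2m in oligodendrocyte-like nuclei was an exception that rested on 1 nucleus. It stood at 2.33 and 131.6 CPM, and in the library labelled cKO 63 of its 66 UMIs came from a single nucleus with 25366 UMIs. Without that nucleus the level was 6.30. The same nucleus held 24 of the 41 Gfap UMIs of the class, and Gfap without it fell from 81.7 to 35.7 CPM.

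Serpina3n was also highest in astrocyte-like nuclei, at 56.3 and 86.3 CPM, but from far fewer UMIs (89 and 175). Oligodendrocyte-like nuclei came second, at 23.3 and 39.9. Lcn2 stood at 126.5 and 177.0 in astrocyte-like and at 80.1 and 159.3 in endothelial-like nuclei. The ranges over the libraries overlapped, although the astrocyte-like level was the higher within each library. This difference between classes was not tested. The endothelial-like Lcn2 UMIs lay in 11 of 198 and 18 of 101 nuclei. Of the 10 classes compared, every other one had a mean Lcn2 level of at most 16.7.

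Like Lcn2, the other 4 genes were also counted at high levels in further lesional classes. Where these nuclei lay within the lesion was not measured. Cd44 stood at 528.6 and 725.6 CPM in astrocyte-like nuclei, at 307.4 and 293.7 in T-cell-like and at 216.9 and 255.5 in myeloid-like nuclei, with no overlap between these neighbours. Because myeloid-like nuclei were more numerous, they held 39.4% and 44.0% of lesional Cd44 UMIs, against 31.4% and 36.0% in astrocyte-like nuclei. Osmr stood at 269.4 and 366.7 in astrocyte-like, 216.4 and 278.7 in endothelial-like, 177.8 and 221.2 in fibroblast-like and 135.9 and 245.4 in osteoblast-like nuclei. The range of each of these neighbours over the libraries overlapped the next. Within each library, though, astrocyte-like stood above endothelial-like and endothelial-like above fibroblast-like nuclei. Fibroblast-like nuclei held 71.0% and 69.4% of the Osmr UMIs. Stat3 was broad, at 383.2 and 418.0 in astrocyte-like nuclei and 343.3 and 350.9 in fibroblast-like nuclei. It was lowest in excitatory-neuron-like nuclei, at 45.5 and 39.3. Vim stood at 170.7 and 211.5 in astrocyte-like nuclei and at 168.7 and 150.1 in endothelial-like nuclei, values that did not overlap but differed by only 1.20 times on average.

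**Figure D1:**
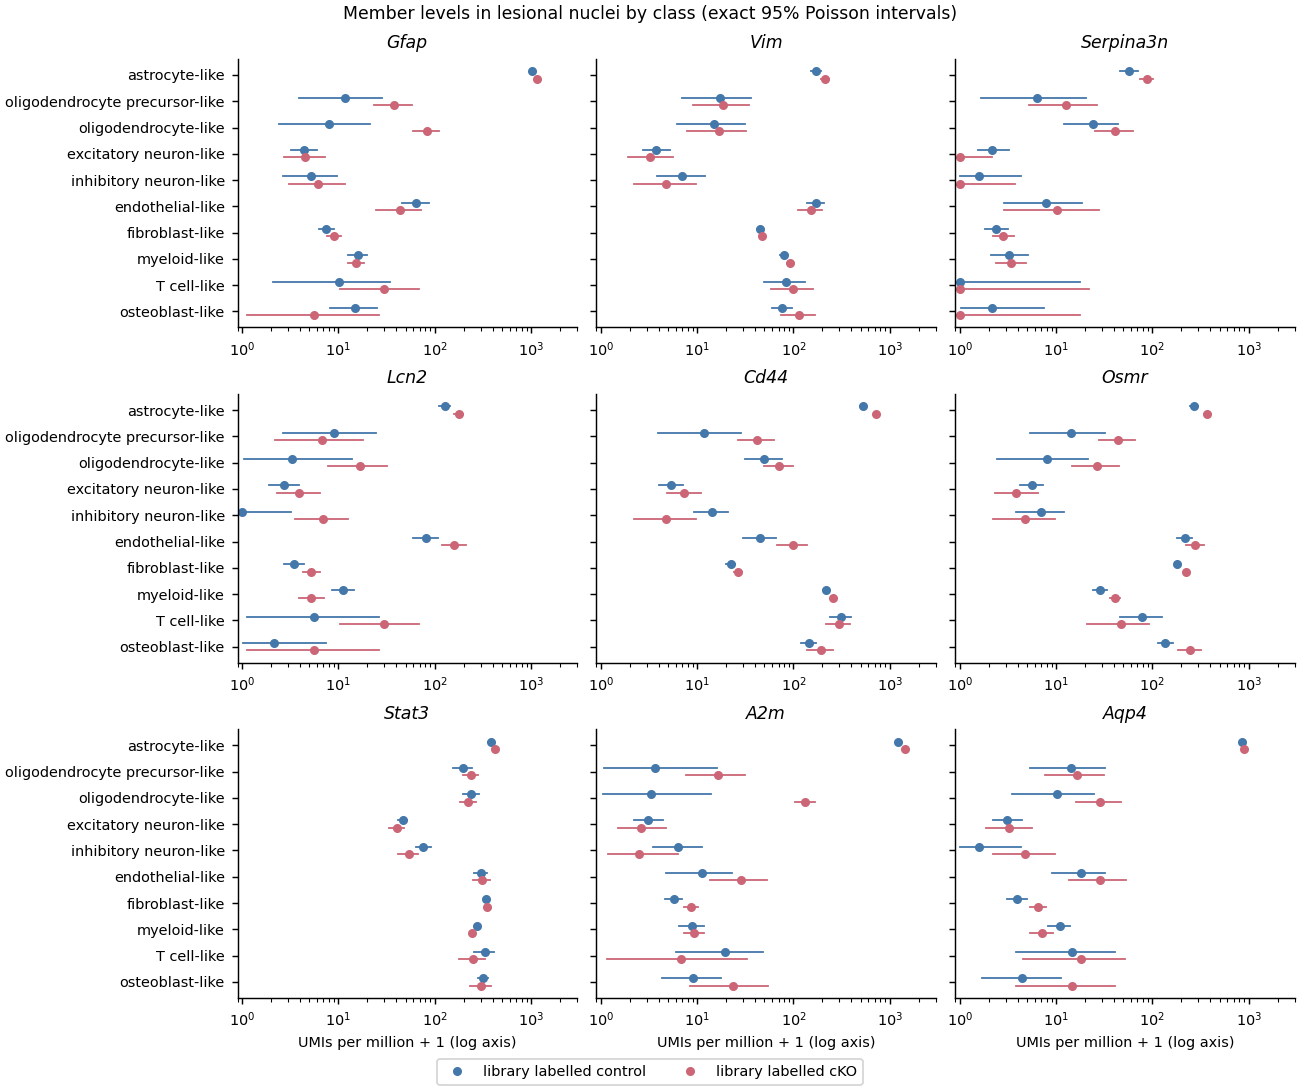
Each panel gives 1 gene, with the level in lesional nuclei (CPM plus 1, log axis) for 10 classes, points for the libraries labelled control (blue) and cKO (red) and bars for exact 95% Poisson intervals. Gfap, A2m and Aqp4 stand far to the right in astrocyte-like nuclei alone, whereas Stat3 lies between 195.7 and 418.0 in all classes but the neurons.

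Neurons served as a measure of free RNA, since they are not known to transcribe Gfap. In lesional excitatory-neuron-like nuclei Gfap stood at 3.42 and 3.51 CPM, and 2.96% and 4.68% of these nuclei had a Gfap UMI, at medians of 13890 and 12780 UMIs. The share was 75.4% and 81.5% in lesional astrocyte-like nuclei, at medians of 3300 and 3700 UMIs. With every nucleus thinned to 1000 UMIs, which left out 4 and 3 astrocyte-like nuclei, the shares were 53.3% and 57.9% in astrocyte-like nuclei and 0.395% and 0.427% in excitatory-neuron-like nuclei. Aqp4 gave thinned shares of 49.1% and 57.7% in astrocyte-like nuclei, and A2m 38.2% and 43.2%. Serpina3n was detected in only 4.98% and 7.98%, and Lcn2 in 9.01% and 13.3%.

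The second question was how the genes differed between lesion and parenchyma within astrocyte-like nuclei. UMIs were summed for each region of each library and compared by edgeR's quasi-likelihood test with the library as a block and Benjamini-Hochberg adjustment over 9606 genes. All 9 genes were higher in the lesion at an adjusted p under 0.05. Of all genes tested 9.49% were called higher in the lesion and 9.15% lower. The median log2 difference was 1.96 over the 9 genes and 0.02 over all genes. With 4 sums from pooled mice and the library as a block, the spread behind the p-values is how far the region difference varied between the 2 libraries. This spread was shared over genes by edgeR and cannot be told apart from the genotype labels. The p-values therefore do not measure the spread between mice, however small they are. Shifts in the makeup of the class and changes within nuclei cannot be told apart in such sums. The oligodendrocyte precursor markers also stood higher in the lesion, as given above, and the 8 endothelial markers summed to 25.9 and 30.6 CPM there against 0 and 4.32 in the parenchyma. Their part in the differences below was not tested.

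Of the filament genes, Gfap rose from 354.0 (65 UMIs) in the parenchyma to 1018 in the lesion of the library labelled control, and from 177.1 (41 UMIs) to 1161 in the library labelled cKO. The regions did not overlap. The log2 difference was 1.96 ± 0.25 (SE of the fit, n = 2 libraries, edgeR adjusted p = 5.37e-05). Vim stood at 119.8 and 34.6 in the parenchyma and at 170.7 and 211.5 in the lesion, a log2 difference of 1.26 ± 0.36 (edgeR adjusted p = 0.0251). The Vim difference was much smaller in the library labelled control, with a log2 ratio of 0.48 and a counting interval of -0.12 to 1.21, than in the library labelled cKO, with 2.53 and 1.62 to 3.83.

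The secreted proteins followed, each on few parenchymal UMIs. A2m stood at 108.9 (20 UMIs) and 276.5 (64 UMIs) in the parenchyma and at 1213 and 1423 in the lesion, with a log2 difference of 2.67 ± 0.25 (edgeR adjusted p = 3.104e-06). Lcn2 stood at 54.5 (10 UMIs) and 17.3 (4 UMIs) against 126.5 and 177.0, with a log2 difference of 2.03 ± 0.41 (edgeR adjusted p = 0.00243). Serpina3n stood at 32.7 (6 UMIs) and 8.64 (2 UMIs) against 56.3 and 86.3, with a log2 difference of 1.75 ± 0.53 (edgeR adjusted p = 0.0326). In the library labelled control alone the Serpina3n log2 ratio was 0.68 with a counting interval of -0.39 to 2.27. In the library labelled cKO the level was 9.98 times higher in the lesion, with an interval on the log2 scale of 1.45 to 6.38 from the 2 parenchymal UMIs.

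Cd44 and Osmr differed the most and were the most alike in both libraries. Cd44 rose from 38.1 and 43.2 CPM in the parenchyma to 528.6 and 725.6 in the lesion, a ratio of 13.9 and 16.8 times. Its log2 difference was 3.82 ± 0.28 (edgeR adjusted p = 4.74e-07), the largest of the 9 and rank 145 of 9606 genes. Osmr rose from 32.7 and 38.9 to 269.4 and 366.7, with a log2 difference of 3.03 ± 0.30 (edgeR adjusted p = 5.60e-06). Stat3 rose from 141.6 and 121.0 to 383.2 and 418.0, with a log2 difference of 1.49 ± 0.23 (edgeR adjusted p = 0.000273). Aqp4 rose from 386.6 and 293.8 to 855.5 and 901.0, with a log2 difference of 1.25 ± 0.20 (edgeR adjusted p = 0.000357), the smallest of the 9.

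**Figure D2:**
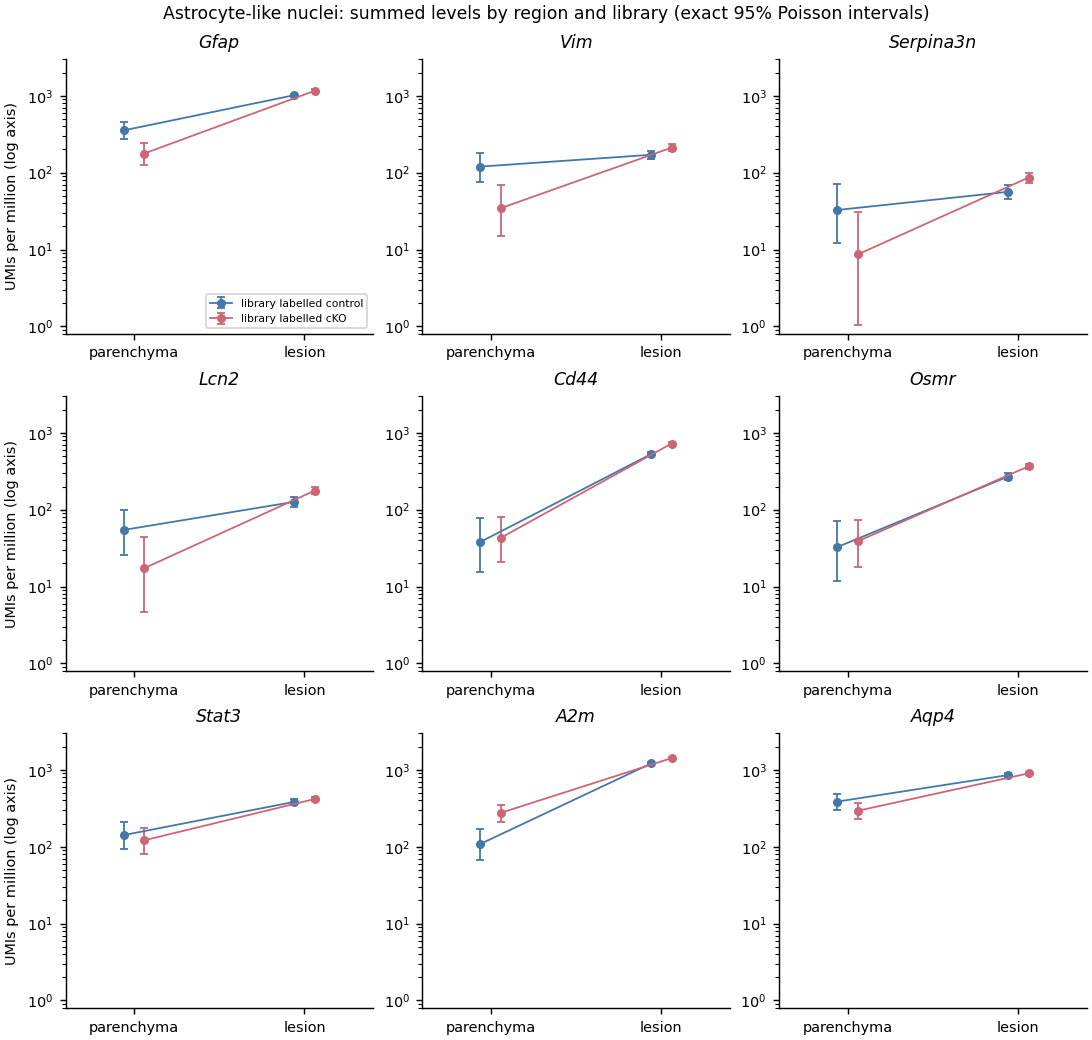
Each panel gives 1 gene, with its summed level in parenchymal and lesional astrocyte-like nuclei (CPM, log axis), lines joining the regions of a library and bars for exact 95% Poisson intervals. Every line goes up towards the lesion, steeply for Cd44 and Osmr, and the slopes of Vim, Serpina3n and Lcn2 differ between the libraries.

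Depth and method bore on the weaker calls. Thinned to 1000 UMIs per nucleus, 5 of the 9 genes were called (Gfap, Cd44, Osmr, Stat3 and A2m), with all 9 still higher in the lesion. The adjusted p of the others was then between 0.0889 (Lcn2) and 0.506 (Vim). DESeq2 called 7, without Vim (adjusted p = 0.160) and Serpina3n (0.301). Nuclei of the male mice alone gave 7 as well, without the same genes (0.553 and 0.641). With the unnamed glial subcluster added, which was chosen after seeing the data, 7 were called, again without Vim (0.108) and Serpina3n (0.0922). Serpina3n also missed the threshold at a clustering resolution of 0.5 (0.0507) and with no filter on nuclei (0.0509), and was called in 11 of 17 settings that tested it.

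Few parenchymal nuclei held much of the signal. Astrocyte-like nuclei fell into 3 subclusters, written here by a leading gene: Slc7a10, Gpr179 and Slco1a6. Against all other nuclei, 12, 11 and 10 of the 12 astrocyte markers were raised in them. The next best list was that of oligodendrocyte precursors for the Gpr179 subcluster and of ependymal cells for the Slco1a6 subcluster. Set against the other glia only, the Slc7a10 subcluster (153 nuclei) was named astrocyte. The Gpr179 (337) and Slco1a6 (472) subclusters, which held most lesional astrocyte-like nuclei, then got no name. The Slc7a10 subcluster, led by Grin2c, Slc7a10 and Slco1c1, held 33 of 37 and 42 of 45 parenchymal nuclei. The other 4 and 3 parenchymal nuclei held 73.9% and 48.8% of parenchymal Gfap UMIs, 81.8% and 62.5% of Vim, 100% and 75.0% of Lcn2, and 40.0% and 93.8% of A2m. Whether their tags place these nuclei in the right region was not tested. With these 7 nuclei left out, an alternative chosen after seeing the data, the log2 differences were 3.34 for Gfap, 3.27 for Vim, 5.71 for Lcn2, 4.84 for A2m and 3.66 for Serpina3n, and all 9 genes were called. Within the Slc7a10 subcluster alone, also chosen after seeing the data, 59 and 19 lesional nuclei could be set against 33 and 42 parenchymal ones. Gfap stood at 104.7 and 96.0 CPM in the parenchyma and at 968.8 and 1146 in the lesion (log2 difference 3.22 ± 0.30, edgeR adjusted p = 2.03e-23). All 7 genes with enough UMIs for this test were called higher in the lesion, where 8.9% of 3721 genes were called higher and 7.77% lower. Serpina3n and Lcn2 had at most 3 UMIs in any of these 4 groups and were not tested. Leaving out the nuclei with the highest doublet scores (Scrublet) kept 37 and 43 parenchymal and 403 and 425 lesional astrocyte-like nuclei. The log2 differences were then 4.22 for A2m, 4.855 for Cd44 and 2.25 for Gfap, and all 9 genes were called. Whether the nuclei left out were doublets was not tested.

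The genes did not follow 1 order over the lesional subclusters, which are given as a description with no test. The Slco1a6 subcluster had the highest Gfap (1282 and 1311 CPM), A2m (1973 and 1728), Lcn2 (246.2 and 215.8), Cd44 (704.6 and 833.4) and Vim (207.1 and 232.4). Osmr (363.4 and 394.5) and Stat3 (465 and 451.5) were also highest there. In the Gpr179 subcluster A2m was 542.1 and 514.1, Gfap 699.6 and 646.0 and Lcn2 16.6 and 72.8. Lesional nuclei of the Slc7a10 subcluster had more Gfap (968.8 and 1146) than the Gpr179 subcluster but hardly any Serpina3n (14.3 and 12.7) or Lcn2 (4.75 and 12.7). Serpina3n was highest in the Gpr179 subcluster of the library labelled cKO, at 106.9, and at 68.0 and 58.6 in the Gpr179 and Slco1a6 subclusters of the library labelled control. Aqp4 varied the least, from 674.7 to 978.3 over all 6 groups.

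**Figure D3:**
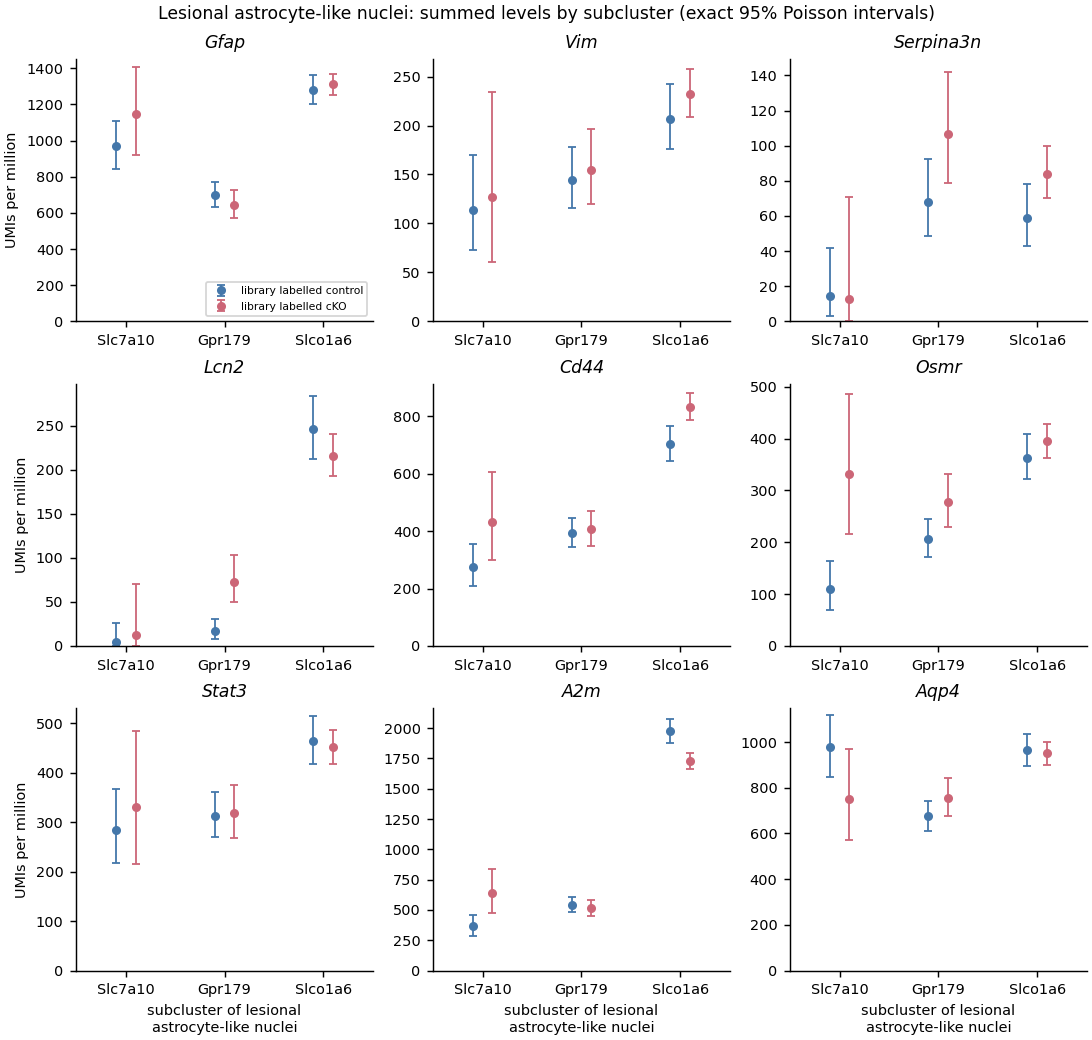
Each panel gives 1 gene, with its summed level (CPM) in the 3 subclusters of lesional astrocyte-like nuclei, points for the libraries labelled control (blue) and cKO (red) and bars for exact 95% Poisson intervals. Lcn2 and A2m are high in the Slco1a6 subcluster alone, and Gfap in the Slc7a10 subcluster lies between the other two.

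Other genes of the astrocyte response moved in part. Of 7 further pan-reactive genes 6 were tested and 4 rose in the lesion, with a median log2 difference of 2.36 over those tested. They were Cp (ceruloplasmin, 136.1 and 146.9 to 1246 and 1683 CPM, log2 difference 3.24, edgeR adjusted p = 2.77e-07), S1pr3 (2.74), Steap4 (1.97) and Aspg (1.82). Of 12 A2-type genes 6 were tested and 5 rose, among them Tgm1 (4.21), Cd109 (4.46) and Ptx3 (4.69). Parenchymal UMIs were 2 and 1 for Tgm1, 1 and 1 for Cd109, 0 and 1 for Ptx3, 0 and 0 for Emp1 and 1 and 0 for Tm4sf1. All 5 thus passed the filter only through the lesion, so their direction was set beforehand. Their count does not set A2-type apart from A1-type genes. Of 11 A1-type genes 5 were tested and 2 rose, Ggta1 (3.05) and Serping1 (2.32). The 9 homeostatic genes went the other way: 7 fell and 2, Slc1a3 (log2 difference -0.29) and Kcnj10 (-0.54), were not called. Slc1a2, the main glutamate transporter, fell from 9236 and 9237 to 2064 and 2087. Some of these genes were class markers, so their use in naming the class limits what that count shows. Each median stands beside 0.02 over all genes, and a gene that passed the filter only through the lesion had to differ.

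Few signalling partners of Osmr and Stat3 were called. Of 8 gp130 receptors and kinases, all tested, Il6ra rose (log2 difference 1.73, adjusted p = 0.0487), Cntfr fell (-1.53, adjusted p = 0.00343) and 6 were not called. Il6st, which encodes gp130 itself, stood at 65.4 and 77.8 CPM in the parenchyma and 150.5 and 110.9 in the lesion (log2 difference 0.70, adjusted p = 0.123). Of the 8 ligands of this pathway only Clcf1 had enough UMIs for the test and it was not called, while Osm had 0 UMIs in the 962 astrocyte-like nuclei. Of 6 feedback and early target genes 5 were tested and 1 rose, Bcl3 (2.80). Socs3, the feedback inhibitor, gave a log2 difference of 2.86 with an adjusted p of 0.0855 from 73 UMIs. Of 5 filament partners Plec rose (1.498) and Lmna was not called, and 3 had too few UMIs. Of 8 endfoot partners of Aqp4, Utrn rose (1.16), Dtna and Hepacam fell (-0.9999 and -1.01) and 5 were not called.

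The same comparison of regions was run in 5 other classes, chosen after seeing the data. Some parenchymal levels rested on few nuclei and UMIs. The parenchyma held 51 and 50 fibroblast-like nuclei, where 5 UMIs were 22.3 and 23.4 CPM. It held 32 and 46 myeloid-like nuclei, at medians of 1716 and 1929 UMIs. In fibroblast-like nuclei Osmr rose from 26.8 and 18.8 to 177.8 and 221.2 CPM (log2 difference 3.19 ± 0.34, edgeR adjusted p = 2.05e-06) and Stat3 rose by 0.76 ± 0.22 on the log2 scale (adjusted p = 0.0288), where 5.39% of genes were called higher and 3.7% lower. In myeloid-like nuclei Cd44 rose from 11.7 and 50.6 to 216.9 and 255.5 (log2 difference 3.104 ± 0.58, edgeR adjusted p = 1.60e-05), beside 3.62% of genes higher and 3.52% lower. Stat3 also rose in excitatory-neuron-like nuclei, from 27.2 and 29.1 to 45.5 and 39.3 (log2 difference 0.71 ± 0.12, edgeR adjusted p = 2.29e-05). There 6 of the 8 genes tested were called higher, beside 14.7% of all genes higher and 17.2% lower, and the other 5 of the 6 stood at no more than 4.61 CPM in either region. In inhibitory-neuron-like nuclei Stat3 was the 1 gene of 5 called higher (log2 difference 0.88, adjusted p = 0.0155), beside 2.29% of genes higher and 5.6% lower. In oligodendrocyte-like nuclei none of 5254 genes was called in either direction (0%) by edgeR, and Stat3 there had a log2 difference of 1.54 with an unadjusted p of 0.00769 and an adjusted p of 0.486. The parenchyma held only 25 and 32 oligodendrocyte-like nuclei, at medians of 3123 and 3700 UMIs, which limits what the absence of calls there shows. Whether the region differences differ between classes was not tested.

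The third question was whether the genes differed between the libraries labelled control and cKO. With 1 library per genotype there is no test, and the intervals below cover counting error only. In lesional astrocyte-like nuclei all 9 genes stood higher in the library labelled cKO, by log2 ratios of 0.07 to 0.61. The median over the 9 was 0.31, and over all 11488 genes with at least 20 UMIs it was -0.02. Only Serpina3n passed 1.5-fold, at 56.3 and 86.3 CPM (log2 ratio 0.61, interval 0.24 to 1.00). Of all such genes 7.09% were past 1.5-fold higher and 8.54% past 1.5-fold lower. Lcn2 followed with 0.48 (0.23 to 0.74), Cd44 with 0.46 (0.33 to 0.58) and Osmr with 0.44 (0.27 to 0.62). Gfap gave 0.19 (0.10 to 0.28), and the intervals of Stat3 (-0.03 to 0.28) and Aqp4 (-0.03 to 0.18) included 0.

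By mouse, 7 of the 9 genes were higher in both mice of the library labelled cKO than in both of the library labelled control, where 17.8% of all such genes were higher and 19.6% lower in this way. With the female mouse given first, Gfap was 1044 and 898.8 CPM in the mice labelled control against 1194 and 1185 in the mice labelled cKO. Cd44 was 557.5 and 504.5 against 747.2 and 807.7. Osmr was 284.0 and 265.0 against 345.0 and 446.8, and Serpina3n 45.8 and 65.7 against 78.8 and 82.9. Lcn2 overlapped, with 128.3 and 135.7 against 120.0 and 236.5, as did A2m, with 1322 and 1236 against 1267 and 1463.

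**Figure D4:**
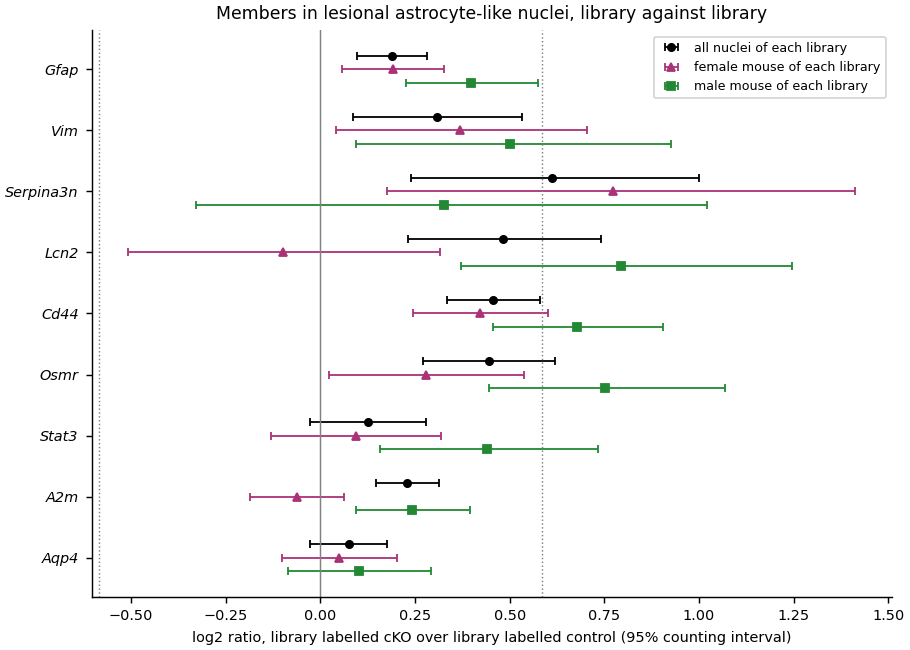
For each gene the log2 ratio of the library labelled cKO over the library labelled control in lesional astrocyte-like nuclei is shown for all nuclei and for the female and the male mouse, with 95% counting intervals and dotted lines at 1.5-fold. The points for all nuclei lie between 0.07 and 0.61, and Lcn2 and A2m of the female mice lie left of 0.

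The makeup of the class moved with the library. Of lesional astrocyte-like nuclei, 39.9% (exact binomial interval 35.2 to 44.7) and 65.2% (60.6 to 69.6) lay in the Slco1a6 subcluster. The Gpr179 subcluster was 46.2% and 30.6%, and the Slc7a10 subcluster 13.9% and 4.19%. Within the Slco1a6 subcluster Gfap gave a log2 ratio of 0.03 (-0.08 to 0.14), Osmr 0.12 (-0.09 to 0.33) and Lcn2 -0.19 (-0.45 to 0.08). A2m was lower there in the library labelled cKO, at -0.19 (-0.28 to -0.10), while Cd44 at 0.24 (0.10 to 0.39) and Serpina3n at 0.51 (0.02 to 1.05) stayed higher. Within the Gpr179 subcluster Gfap gave -0.11 (-0.34 to 0.11), Cd44 0.05 (-0.24 to 0.34) and Lcn2 2.09 (1.07 to 3.32), from 10 and 32 UMIs, while Osmr gave 0.43 (0.06 to 0.81) and Serpina3n 0.65 (0.02 to 1.29). Within the Slc7a10 subcluster, with 59 and 19 nuclei, Osmr gave 1.60 (0.73 to 2.48) from 23 and 26 UMIs. A2m there was higher in the library labelled cKO, at 0.81 (0.26 to 1.33), the opposite direction to the Slco1a6 subcluster, and Gfap gave 0.25 (-0.13 to 0.61). In other lesional classes Osmr was higher in the library labelled cKO in fibroblast-like nuclei (log2 ratio 0.31, interval 0.24 to 0.39), with 0.30 between the female and 0.42 between the male mice. In myeloid-like nuclei Osmr gave 0.53 (0.23 to 0.84), but -0.06 (-0.56 to 0.46) between the female and 1.25 (0.60 to 1.98) between the male mice. Cd44 in myeloid-like nuclei gave 0.24 (0.13 to 0.35), with 0.53 (0.36 to 0.70) between the female and 0.08 (-0.12 to 0.29) between the male mice, and Stat3 gave 0.03 (-0.03 to 0.09) in fibroblast-like nuclei.

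Profiles over classes were compared as a description over 26 groups of at least 50 nuclei (a class in 1 region of 1 library), which share libraries and depth. By Pearson's r of log2(CPM + 1) among 16390 genes, Gfap was most like C530044C16Rik (0.93), Aqp4 (0.92) and A2m (0.90), and A2m was most like Aqp4 (0.92). Osmr was most like Cxcl12 (0.97), Nox4 (0.95) and Wwtr1 (0.95), Stat3 most like Tram2 (0.97), and Vim most like Pbxip1 (0.97). Cd44 was most like Dyrk1a (0.92), Serpina3n most like Cdh19 (0.93) and Lcn2 most like Ggta1 (0.89). Among the 9 genes themselves r ran from 0.38 (Vim and Serpina3n) to 0.94 (Vim and Stat3).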

How the data were processed

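Single-nucleus RNA sequencing used Chromium 3′ v3.1 chemistry. The authors aligned reads with Cell Ranger 9.0.0 to GRCm39, and the deposited values were whole-number UMI counts per gene and nucleus without normalization, in 1 matrix per region and library. Tag libraries were not analysed here. The members and lists were chosen with earlier results of these data known. Barcodes outside the 2.5 percentiles of UMIs or genes, or in the top 2.5% of mitochondrial share, were removed. Nuclei were clustered with scanpy 1.11.5 (3000 variable genes, 30 components, 20 neighbours, Leiden resolution 0.25; glia again with 2000 genes) and named from 17 marker lists. The members, the reactivity and pathway lists and sex-linked genes took no part. A glial subcluster of 235 nuclei with fibroblast and myeloid genes, 42.6% of them with UMIs of both sexes, was left unnamed by a rule set after seeing it. Doublets were treated only as an alternative, since Scrublet marked 3.20% and 3.45% of lesional but 0.0695% and 0.106% of parenchymal nuclei. Sums were tested with edgeR 4.0.16 (R 4.3.3), after filtering by expression and TMM scaling; DESeq2 1.42.0 was an alternative. On simulated data for lesion over parenchyma (9023 genes), edgeR recovered 53.1% of 4-fold and 3.13% of 2-fold changes. Ratios added 0.5 UMIs to each sum or used exact conditional intervals. All members were named, and list genes by their UMIs in astrocyte-like nuclei. Mice were told apart by Xist against Ddx3y, Uty, Kdm5d and Eif2s3y. Alternatives changed the clustering, filters, scaling, test, depth or mice. Scripts ran under Python 3.11.15.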

Additional observations from a re-analysis of the deposited data

Results flagged for a closer look

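In lesional astrocyte-like nuclei the log2 ratio of the library labelled cKO over the library labelled control pointed in opposite directions in the mice of each sex for 2 of the 9 genes. For Lcn2 it was -0.10 between the female mice (counting interval -0.51 to 0.32) and 0.80 between the male mice (0.37 to 1.25). For A2m it was -0.0612 between the female mice (-0.19 to 0.06) and 0.24 between the male mice (0.09 to 0.39). Each sex was 1 mouse per library, so the difference between the sexes was not tested. The Slco1a6 subcluster, highest in both genes, was 45.1% and 58.6% of lesional astrocyte-like nuclei in the female mice of the libraries labelled control and cKO, and 40.7% and 71.7% in the male mice. Its part in these ratios was not tested.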

How the results depend on the processing

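Of 111 values under alternatives, 88 stayed the same, 23 moved and 0 reversed. A log2 difference or level stayed the same if it kept its side of the threshold or lay within its error. A count of called genes stayed the same if it lay within 1.5-fold of the main count. By this rule 7 or 8 called members beside 9, and 1219 called genes beside 1791, were the same. Gfap in the lesion over the parenchyma was called under each of 18 fits, with log2 differences of 1.46 to 3.34, and leaving out 1 library, which leaves no residual degrees of freedom and so no test, gave 1.58 to 2.77. Thinned nuclei gave 5 called members and 481 called genes against 9 and 1791. The count of called genes was 3914 with nuclei assigned by their own markers, 737 in male mice, 620 in the Slc7a10 subcluster and 692 with DESeq2. Without a filter on low counts the share of calls that were higher in the lesion was 65.4% against 50.9%. Between the libraries, members past 1.5-fold were 0 without nuclei holding UMIs of both sexes, 0 with nuclei weighted alike and 0 at 2-fold, and 3 in male mice and 3 with the mixed glial subcluster added, an alternative chosen after seeing the data. The Gfap log2 ratio was 0.40 in male mice and 0.33 with that subcluster. Gfap levels were 531.8 and 578.2 CPM by own markers, 921.8 and 1051 when thinned and 794.8 and 1002 with the mixed subcluster. The control level was 898.8 in the male mouse, and with nuclei weighted alike the cKO level was 1088. For the thinned, own-marker, single-sex and added-subcluster values the nuclei counted differ by construction, and the cause of the other moves was not tested. The 37 and 45 parenchymal astrocyte-like nuclei limit every region value: 3 UMIs were 16.3 and 13.0 CPM there, against 1.90 and 1.48 in the lesion. The regions were paired through the library block: 9 members and 1985 genes were called without it, and 9 members and 1665 genes with the mouse as block (Gfap log2 difference 1.81). No paired analysis was possible between the libraries because the labels give each group 1 replicate.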
